A study of Mus musculus with 8 samples.

Results

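The genes described here are 36 listed members of the axis that runs through the transcription factor ATF4 and supplies the cell with amino acids. The list was given by name: 13 stress factors, 7 serine and folate enzymes, 7 enzymes of amino acid synthesis and 9 amino acid transporters. They are 36 of the 26014 gene symbols in the count tables, and 34 of them were among the 10312 genes that passed a filter on low counts. RNA-seq libraries were made from V6.5 cells, a mouse line of embryonic stem (ES) cells, with 2 in each of 4 groups, and the study followed loss of the transcription factor OCT4 and loss of the cytokine LIF. In the OCT4-FKBP line, OCT4 is fused to FKBP, a tag through which dTAG molecules bring the fusion protein to the ubiquitin ligase machinery. Cells of this line were kept for 24 h with dTag9, the dTAG group, or with DMSO, the DMSO group. The wild-type (WT) line without the tag was either left without LIF for 5 days, the no LIF group, or kept with it, the LIF group. All 4 groups were grown on gelatin in 2i medium, whose inhibitors of MEK and GSK3 hold ES cells in a naive state. The labels name a single tagged line and do not say how many clones it stands for, and untagged cells with dTAG are not analysed here.

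Cells that run short of an amino acid, or meet endoplasmic reticulum stress, haem shortage or double-stranded RNA, phosphorylate the initiation factor eIF2. Most translation then slows, while the mRNAs of ATF4 and a few other factors are translated better. ATF4, often paired with a C/EBP protein, switches on genes for amino acid transporters, for the synthesis of serine, asparagine, proline and other amino acids, for mitochondrial folate enzymes and for tRNA charging, as well as feedback genes and, after long stress, the death-promoting factor CHOP. Because ATF4 is controlled mainly at translation, the mRNA levels below describe the target genes more directly than the activity of ATF4 itself. Mouse ES cells are known for a high demand for one-carbon units, much of which they draw from threonine.

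The letters that ATF4 and C/EBP proteins are known to bind, the C/EBP-ATF response element TGATGNAA, were looked for on both strands of RefSeq promoters, from 250 bases before each transcript start to 50 after it (build GRCm38.p6). A window was at hand for 31 of the 36 members, and those without one were Aldh1l2, Slc7a3, Slc7a5, Slc1a5 and Cth. The motif was in 1304 of 32851 windows, or 3.97%, and in those of 9 of the 31 members, or 29.0%, against 4.51% of the 27025 genes with a window. A match is a description of these letters and not a binding site. The members were listed as genes of the ATF4 axis, so a higher share than among all genes is no independent result. The members with a match were Atf3, Trib3, Chac1, Nupr1, Asns, Pycr1, Got1, Slc7a11 and Slc1a4. The stretches around the matches are shown for the 7 of them whose match lies wholly upstream of the start, 5′ to 3′ on the strand of the gene. Capitals mark the motif, which reads TTNCATCA where it lies on the opposite strand.
Atf3: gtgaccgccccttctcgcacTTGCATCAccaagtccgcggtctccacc
Chac1: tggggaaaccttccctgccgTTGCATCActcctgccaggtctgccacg
Nupr1: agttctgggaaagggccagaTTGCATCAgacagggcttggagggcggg
Asns: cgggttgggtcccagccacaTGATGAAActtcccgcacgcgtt
Pycr1: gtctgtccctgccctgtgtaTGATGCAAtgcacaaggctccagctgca
Got1: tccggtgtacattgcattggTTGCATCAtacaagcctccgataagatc
Slc7a11: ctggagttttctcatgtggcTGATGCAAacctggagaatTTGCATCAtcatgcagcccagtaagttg
The stretches lie at chr1:191183416-191183463 (minus strand) for Atf3, chr2:119351029-119351076 (plus) for Chac1, chr7:126625553-126625600 (minus) for Nupr1, chr6:7693210-7693252 (minus) for Asns, chr11:120643824-120643871 (minus) for Pycr1, chr19:43524680-43524727 (minus) for Got1 and chr3:50443633-50443699 (minus) for Slc7a11. Slc7a11 held 2 matches, which began at positions -66 and -47 from the transcript start. In Asns the match began at -23, and in Atf3 and Nupr1 it began at -110. Those of Pycr1 and Got1 began at -103 and -102, and that of Chac1 at -193. In Trib3 the match lay downstream of the start, at 15, and in Slc1a4 it began at -4. The cAMP response element TGACGTCA, which ATF3 and related factors are known to bind, was in 1.79% of all windows and in that of 1 member, Ppp1r15a, at -12.

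**Figure D1:**
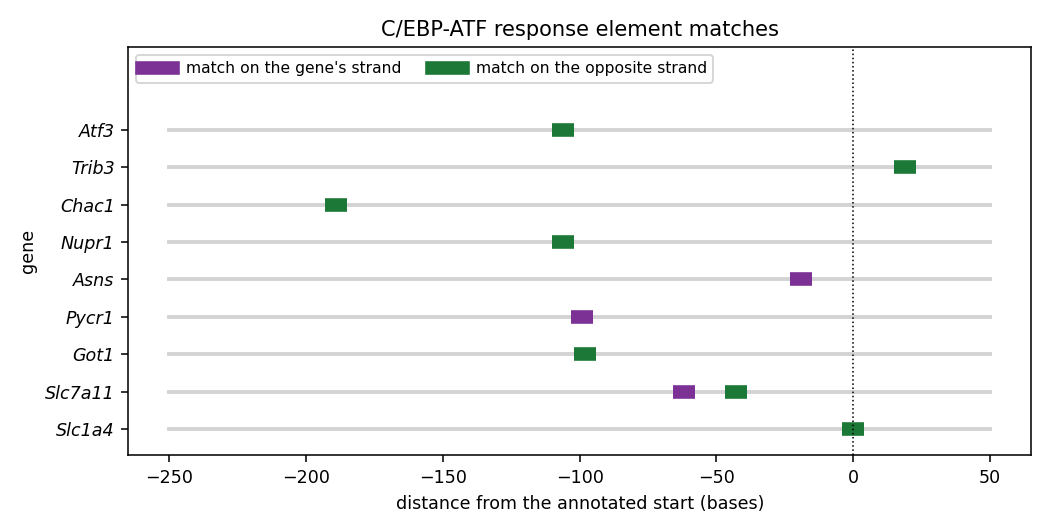
Position of the C/EBP-ATF response element in the promoter windows of the 9 members that hold it, in bases from the annotated start (dotted line); grey lines are the windows and the colour of a mark is the strand of the match. That of Trib3 lies wholly downstream of the start, that of Slc1a4 spans it, and Slc7a11 has 2.

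Counted reads per library came to 9430702 and 9179808 with dTAG, 7221451 and 11447468 with DMSO, 11417897 and 7238413 without LIF, and 11308343 and 8323172 with LIF. Levels are given as CPM, the CPM of edgeR after TMM scaling, in which counts are divided by library size, and describe 1 gene across libraries. Nothing in the labels ties the replicates to different cultures. The p-values thus rest on the spread between libraries alone, and that spread may be technical. OCT4 is removed as a protein, and the Pou5f1 transcript stood at 84.6 and 90.2 CPM with dTAG, against 77.5 and 77.8 CPM with DMSO. Cell identity moved with both treatments. The summed level of 10 ES cell markers was 2378 to 2395 CPM with dTAG, against 6996 to 7067 CPM with DMSO, and 2218 to 2256 CPM without LIF, against 7291 to 7305 CPM with LIF. Of these markers 9 had reads, with 1 read of Esrrb in all, while Nanog had 0 in all 8 libraries. Reads that could not be assigned to 1 annotated transcript were left out of the counts. A marker at 0, here or below, is therefore not shown to be absent. Much of the sum was Tfcp2l1, at 1028 and 1026 CPM with dTAG, against 3599 and 3549 CPM with DMSO, and 91.4 and 100.5 CPM without LIF, against 3205 and 3152 CPM with LIF. Listed markers also went the other way without LIF: Tdgf1 was at 1143 and 1136 CPM without LIF, against 664 and 761 CPM with LIF, and Utf1 at 236 and 231 CPM, against 56.1 and 54.0 CPM. The sum of 9 trophoblast markers was 248 to 268 CPM with dTAG, against 60.8 to 62.8 CPM with DMSO. Without LIF it was 1393 to 1502 CPM, against 24.7 to 24.98 CPM with LIF, with Gata3 at 0 in every library. Most of the sum with dTAG was Cdx2, at 192 and 169 CPM, against 30.7 and 35.0 CPM with DMSO. Without LIF most of it was Krt18, at 878 and 823 CPM, and Krt8, at 521 and 477 CPM. Cdx2 was then at 2.73 and 1.5 CPM, and Tfap2c was lower than with LIF. For 10 fibroblast markers the sum was 630 to 659 CPM with dTAG, against 464 to 483 CPM with DMSO. Without LIF it was 973 to 1013 CPM, against 331 to 336 CPM with LIF, with Dcn at 0 throughout. That sum hides opposite movements of single genes. Vim was at 637 and 612 CPM with dTAG, against 457 and 438 CPM with DMSO, and at 100.1 and 103 CPM without LIF, against 324 and 319 CPM with LIF. Tagln was at 763 and 725 CPM without LIF, against 2.12 and 1.76 CPM with LIF. For 7 primitive endoderm markers the sum was 17.1 to 20.9 CPM with dTAG, against 0.421 to 1.14 CPM with DMSO. Without LIF it was 5.12 to 5.73 CPM, against 1.76 to 1.85 CPM with LIF, with Gata4 and Foxa2 at 0 in every group. Nearly all of the sum with dTAG was Gata6, at 20.6 and 16.9 CPM. For 6 markers of primitive streak and mesoderm the sum was 7.21 to 7.66 CPM with dTAG, against 10.1 to 12.6 CPM with DMSO. Without LIF it was 59.9 to 64.4 CPM, against 7.15 to 7.76 CPM with LIF. Within this sum Kdr went the other way without LIF, at 0.854 and 0.682 CPM, against 5.38 and 5.29 CPM with LIF. For 5 neural markers the sum was 364 to 366 CPM with dTAG, against 424 to 432 CPM with DMSO. Without LIF it was 483 to 509 CPM, against 418 to 474 CPM with LIF, with Pax6 at 0 in every group. Of these only Tubb3 was higher with dTAG, at 186 and 185 CPM, against 154 and 155 CPM with DMSO. Stmn2 was at 44.4 and 46.8 CPM, against 104 and 108 CPM. Without LIF Sox1 was higher, at 41.1 and 43.9 CPM, against 17.9 and 19.1 CPM with LIF. Tubb3 was then lower, at 43.2 and 37.5 CPM, against 55.3 and 57.8 CPM. The part of these cell types in the results was not tested, and in bulk RNA fewer cells of a type and less RNA per cell cannot be told apart.

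Across the 8 libraries most members were highest in WT cells with LIF and lowest after OCT4 degradation. Both LIF libraries lay above all the other 6 for 25 of the 34 tested members, against 15.2% of all tested genes. Both dTAG libraries lay below all the other 6 for 23 of the 34, against 15% of all tested genes. Summed over the members, the level was 3093 and 3003 CPM with dTAG, 4292 and 4179 CPM without LIF, 5536 and 5518 CPM with DMSO, and 8338 and 8540 CPM with LIF, a sum to which well-counted genes such as Asns add most. Without Asns it was 1856 and 1781 CPM with dTAG, 3402 and 3329 CPM without LIF, 3326 and 3338 CPM with DMSO, and 5635 and 5688 CPM with LIF. The 2 members that were not tested were Cebpb, with 0 reads in all libraries, and Slc7a1, with 40 reads in all. Where accessions of a gene overlap, their common reads were counted for none of them. A low count of a gene with several accessions, Cebpb and Slc7a1 among them, therefore says little about its expression. Of the 36 members, 21 have 1 accession, and all of these were tested.

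**Figure D2:**
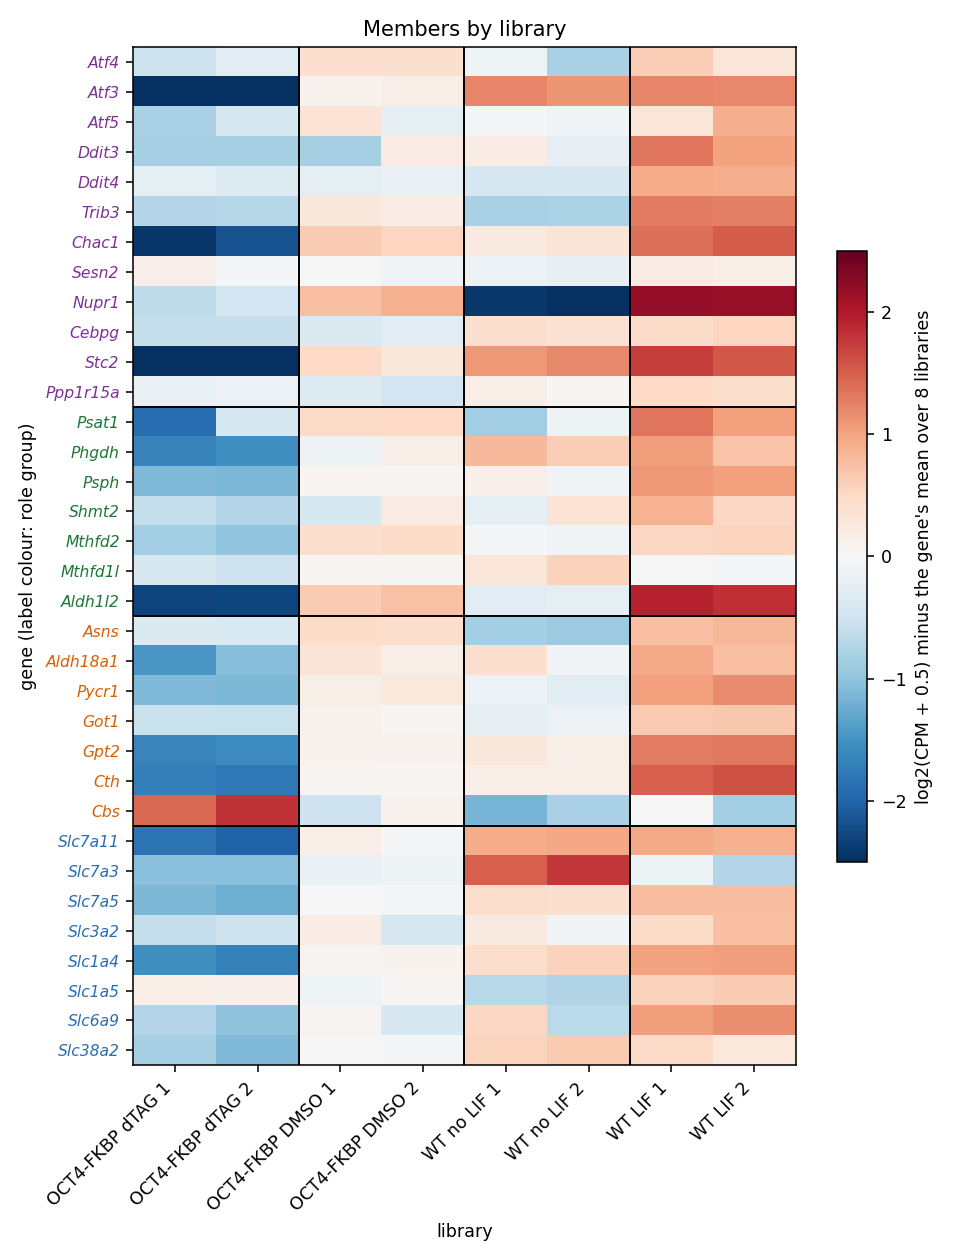
Level of each member in each library, as log2(CPM + 0.5) minus the mean of that gene, with genes in rows by role and libraries in columns by group. Red is above the gene's mean and blue below it, and values beyond the ends of the bar take the end colour. Most rows are reddest in the 2 LIF libraries and bluest in the 2 dTAG libraries, while Cbs is highest with dTAG and Slc7a3 without LIF.

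After 24 h of OCT4 degradation most of the listed members, which were chosen with earlier results of these data known, were lower. With dTAG, 25 of 34 tested members were lower than with DMSO, against 20.4% of all tested genes, and 3 were higher, against 20.1%. Of 27 other reported targets of ATF4 or CHOP that were tested, 8 were lower and 6 higher, nearer to these shares. In either direction 40.5% of all tested genes passed the test. The median log2 fold change over the tested members was -1.25, or -1.15 with the members at 0 reads set to their bound, against -0.00 over all tested genes. At 2-fold or more, 19 members were lower, against 6.95% of all tested genes, and 1 was higher, against 5.81%. Both dTAG libraries lay below both DMSO libraries for 29 members, against 35.4% of all tested genes. With a minimum of 5 CPM in 2 libraries, 21 of 26 tested members were lower and 2 higher. Of the 7731 genes tested there, 1871 were lower and 1917 higher.

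Among the 13 stress factors, 12 were tested, and with dTAG 8 were lower, 1 was higher and 3 did not pass the test, with a median log2 fold change of -1.05. Stc2, a secreted glycoprotein made under stress, stood at 0.985 and 0.444 CPM with dTAG, against 14.6 and 12.4 CPM with DMSO, 18.3-fold lower (log2 fold change -4.19, SE 0.28, edgeR adjusted p = 2.6e-12). The dTAG libraries held 9 and 4 reads of Stc2, and without the first of them its log2 fold change was -4.87. Chac1, which breaks down glutathione, stood at 2.63 and 3.22 CPM with dTAG, against 25.7 and 24.0 CPM with DMSO, 8.44-fold lower (log2 fold change -3.08, SE 0.17, edgeR adjusted p = 5.5e-14). Atf3, a stress-induced transcription factor, stood at 1.75 and 1.77 CPM with dTAG, against 12.9 and 13.5 CPM with DMSO (log2 fold change -2.90, SE 0.21, edgeR adjusted p = 1.3e-11). In all 3 genes the groups were far apart relative to the gap between replicates. Nupr1, a small nuclear stress protein, was at 22.4 and 25.1 CPM with dTAG, against 59.9 and 66.2 CPM with DMSO (log2 fold change -1.42, SE 0.09, edgeR adjusted p = 1.8e-12). Trib3, a pseudokinase that feeds back on ATF4, was at 34.9 and 35.3 CPM with dTAG, against 71.2 and 66.1 CPM with DMSO (log2 fold change -0.96, SE 0.08, edgeR adjusted p = 4.5e-10). Cebpg, a partner of ATF4 in DNA binding, fell less, by 0.28 on the log2 scale (SE 0.08, edgeR adjusted p = 0.0041), with 57.2 and 58.5 CPM with dTAG, against 67.7 and 72.7 CPM with DMSO. Without the second DMSO library the call on Cebpg was lost (edgeR adjusted p = 0.104).

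Ddit4 and Sesn2 did not pass the test with dTAG, and Ppp1r15a was higher. Ddit4, an inhibitor of mTORC1 signalling, was at 132 and 126 CPM with dTAG, against 134 and 138 CPM with DMSO (log2 fold change -0.08, SE 0.06, edgeR adjusted p = 0.33). Sesn2, another brake on mTORC1, was at 170.0 and 149.7 CPM with dTAG, against 157 and 148 CPM with DMSO (log2 fold change 0.07, SE 0.07, edgeR adjusted p = 0.40). The groups overlapped for Sesn2 and came close for Ddit4. Ppp1r15a, the phosphatase subunit that reverses eIF2 phosphorylation, was higher by 0.24 on the log2 scale, at 55.0 and 56.9 CPM with dTAG, against 50.4 and 45.2 CPM with DMSO (SE 0.09, edgeR adjusted p = 0.030). The call on Ppp1r15a was lost in 3 of the 4 fits that left out a library of this comparison and with DESeq2.

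The ATF factors with several accessions rested on few reads. Atf4 had 111 reads over all 8 libraries and stood at 0.766 and 0.998 CPM with dTAG, against 1.97 and 1.94 CPM with DMSO (log2 fold change -1.13, SE 0.45, edgeR adjusted p = 0.045). That call was lost when any library of the comparison was left out, and also with DESeq2 (DESeq2 adjusted p = 0.219). Atf5, which is translated under the same control as ATF4, stood at 0.547 and 0.887 CPM with dTAG, against 1.83 and 1.06 CPM with DMSO, and did not pass (log2 fold change -0.92, SE 0.52, edgeR adjusted p = 0.17). Of its reads, 103 were counted for a transcript annotated as non-coding and 4 for the coding one. Ddit3, which encodes CHOP, had 0 reads with dTAG, against 6 with DMSO, all in the second DMSO library. Set against a floor of 3 reads over the group, its level was at least 1.96-fold lower with dTAG if the 6 DMSO reads are taken as exact. It passed the test (edgeR adjusted p = 0.044), and the call was lost in 8 of the 13 other settings that could test it.

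**Figure D3:**
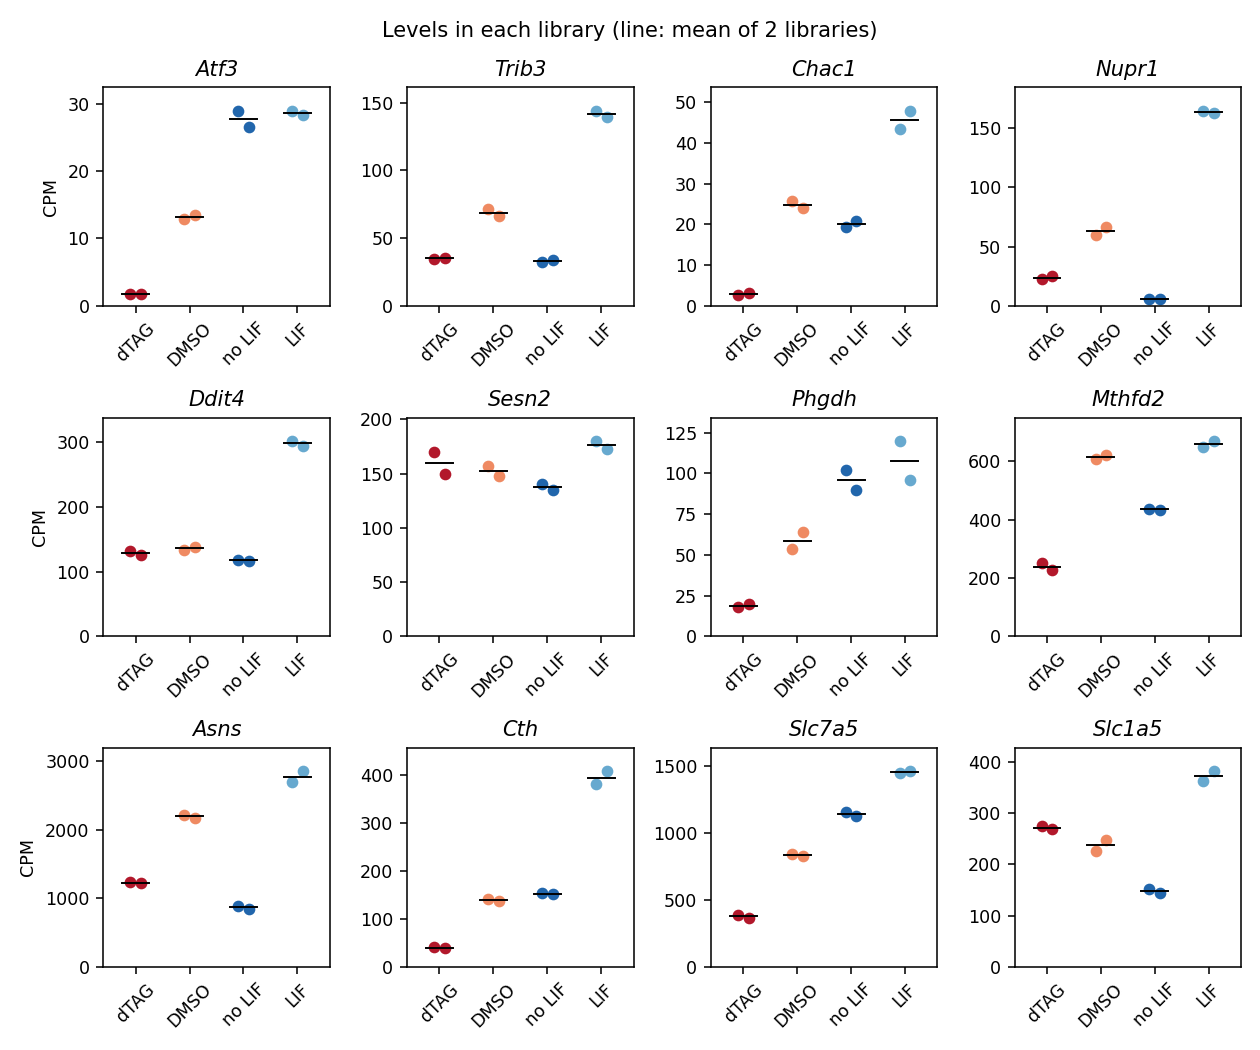
Level in CPM of 12 members in each of the 8 libraries, 1 point per library and 1 panel per gene, with a line at the mean of the 2 libraries and each axis starting at 0. Chac1 and Atf3 come close to 0 with dTAG, Nupr1 does so without LIF, and the 2 LIF libraries of Ddit4 and Cth lie far above the other 6.

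Serine synthesis and the mitochondrial folate enzymes were lower with dTAG. Of 7 enzymes 6 were lower and 1, Shmt2, did not pass the test, with a median log2 fold change of -1.36. Phgdh, the first enzyme of serine synthesis, stood at 17.9 and 19.9 CPM with dTAG, against 53.4 and 64.2 CPM with DMSO (log2 fold change -1.65, SE 0.12, edgeR adjusted p = 2.6e-11). Psph, which completes that pathway, stood at 27.6 and 27.2 CPM with dTAG, against 61.2 and 60.6 CPM with DMSO (log2 fold change -1.15, SE 0.09, edgeR adjusted p = 1.1e-10). Psat1, the step between them, has 2 accessions and 253 reads in all, and stood at 0.328 and 1.77 CPM with dTAG, against 3.79 and 3.87 CPM with DMSO (log2 fold change -1.86, SE 0.43, edgeR adjusted p = 0.00092). All 3 steps of the pathway were thus lower, with no overlap between groups, although the dTAG libraries differed widely for Psat1. Its log2 fold change was -1.11 without the first dTAG library and -3.50 without the second, and passed the test in both cases. Mthfd2, the mitochondrial enzyme that oxidises methylene-tetrahydrofolate, stood at 250.5 and 227 CPM with dTAG, against 606 and 622 CPM with DMSO (log2 fold change -1.36, SE 0.06, edgeR adjusted p = 1.1e-16). Aldh1l2, which releases the mitochondrial one-carbon unit as carbon dioxide, stood at 0.328 and 0.333 CPM with dTAG, against 5.90 and 6.34 CPM with DMSO, 17.9-fold lower (log2 fold change -4.17, SE 0.38, edgeR adjusted p = 1.0e-09). Mthfd1l, which yields formate, was lower by less, at 9.96 and 9.09 CPM with dTAG, against 13.8 and 13.6 CPM with DMSO (log2 fold change -0.52, SE 0.16, edgeR adjusted p = 0.010). Its call was lost without the second dTAG library and with DESeq2 (DESeq2 adjusted p = 0.0757). Shmt2, the mitochondrial enzyme that splits serine to glycine, was at 0.547 and 0.444 CPM with dTAG, against 0.702 and 1.32 CPM with DMSO, on 92 reads in all.

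All 7 enzymes of amino acid synthesis passed the test with dTAG, 6 of them lower, with a median log2 fold change of -1.35. Cth, which makes cysteine from cystathionine, stood at 41.1 and 39.2 CPM with dTAG, against 141 and 138 CPM with DMSO (log2 fold change -1.79, SE 0.07, edgeR adjusted p = 5.4e-17). Gpt2, the mitochondrial alanine transaminase, stood at 75.0 and 78.7 CPM with dTAG, against 250.5 and 253 CPM with DMSO (log2 fold change -1.71, SE 0.06, edgeR adjusted p = 1.4e-17). Pycr1, the last enzyme of proline synthesis, stood at 19.4 and 19.1 CPM with dTAG, against 46.8 and 51.0 CPM with DMSO (log2 fold change -1.35, SE 0.10, edgeR adjusted p = 3.6e-11). In these genes the libraries of a group lay close together and the groups were far apart. Aldh18a1, the first enzyme of proline synthesis, was at 0.219 and 0.444 CPM with dTAG, against 1.97 and 1.67 CPM with DMSO, on 135 reads in all (log2 fold change -2.39, SE 0.55, edgeR adjusted p = 0.00098). Asns, the asparagine synthetase, stood at 1237 and 1222 CPM with dTAG, against 2210.4 and 2180.0 CPM with DMSO (log2 fold change -0.84, SE 0.05, edgeR adjusted p = 2.8e-13). Got1, the cytosolic aspartate transaminase, stood at 226 and 226 CPM with dTAG, against 357 and 344 CPM with DMSO (log2 fold change -0.63, SE 0.06, edgeR adjusted p = 4.3e-10). Cbs, which makes cystathionine and so acts just before Cth, went the other way, at 2.52 and 3.44 CPM with dTAG, against 0.281 and 0.704 CPM with DMSO (log2 fold change 2.44, SE 0.50, edgeR adjusted p = 0.00030). It has 3 accessions and 73 reads in all, and its log2 fold change was 3.34 without the second DMSO library.

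Of the 8 transporters tested, 5 were lower with dTAG, 1 was higher and 2 did not pass, with a median log2 fold change of -1.43. Slc7a5, the large neutral amino acid exchanger, stood at 388 and 364 CPM with dTAG, against 845 and 826 CPM with DMSO (log2 fold change -1.15, SE 0.05, edgeR adjusted p = 8.7e-16). Slc1a4, a carrier of serine, alanine and cysteine, stood at 26.9 and 23.8 CPM with dTAG, against 81.9 and 83.4 CPM with DMSO (log2 fold change -1.70, SE 0.09, edgeR adjusted p = 1.2e-14). Slc7a11, which brings in cystine in exchange for glutamate, stood at 1.204 and 0.998 CPM with dTAG, against 6.32 and 5.46 CPM with DMSO (log2 fold change -2.38, SE 0.29, edgeR adjusted p = 2.2e-07). The groups did not overlap in any of the 3. Slc38a2, a sodium-coupled carrier of small neutral amino acids, stood at 9.96 and 8.21 CPM with dTAG, against 18.3 and 17.7 CPM with DMSO (log2 fold change -0.98, SE 0.15, edgeR adjusted p = 5.7e-06). The glutamine carrier gene Slc1a5 was higher, at 276 and 268 CPM with dTAG, against 226 and 249 CPM with DMSO (log2 fold change 0.19, SE 0.06, edgeR adjusted p = 0.0098). Its call was lost without the first dTAG library (edgeR adjusted p = 0.107) and without the first DMSO library (edgeR adjusted p = 0.232). Slc7a3, a carrier of arginine and lysine, had 0 reads with dTAG, against 8 with DMSO (edgeR adjusted p = 0.012). By the floor of 3 reads per group it was at least 2.62-fold lower if the 8 DMSO reads are taken as exact. The call on Slc7a3 was lost in fits that left out single libraries of the comparison. Slc3a2, the heavy chain that partners Slc7a5 and Slc7a11, was at 4.38 and 4.66 CPM with dTAG, against 7.86 and 5.02 CPM with DMSO, and did not pass (edgeR adjusted p = 0.15). Slc6a9, a glycine carrier, had 1 read with dTAG, against 7 with DMSO, a ratio of 6.88 in favour of DMSO with an exact 95% counting interval of 0.883 to 310, and did not pass either (edgeR adjusted p = 0.12).

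After 5 days without LIF most of the listed members were again lower, in a comparison in which 68.5% of all tested genes passed the test. Without LIF, 23 of the 34 tested members were lower than with LIF, against 34.4% of all tested genes, and 2 were higher, against 34.1%. The median log2 fold change over the tested members was -0.89, against -0.02 over all tested genes. At 2-fold or more, 15 members were lower, against 17% of all tested genes, and 1 was higher, against 16.6%. Both no LIF libraries lay below both LIF libraries for 27 members, against 41.3% of all tested genes.

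Of the 12 stress factors tested, 9 were lower without LIF and 3 did not pass the test, with a median log2 fold change of -0.99. Nupr1 had the lowest log2 fold change of the members, at 6.23 and 5.86 CPM without LIF, against 164 and 163 CPM with LIF, 26.8-fold lower (log2 fold change -4.74, SE 0.11, edgeR adjusted p = 6.5e-23). Trib3 stood at 32.7 and 33.5 CPM without LIF, against 144 and 139.6 CPM with LIF (log2 fold change -2.10, SE 0.08, edgeR adjusted p = 2.9e-18). Ddit4 stood at 118 and 117 CPM without LIF, against 302 and 294 CPM with LIF (log2 fold change -1.34, SE 0.06, edgeR adjusted p = 7.7e-17). All 3 showed no overlap between groups and near-equal replicates. Chac1 stood at 19.4 and 20.7 CPM without LIF, against 43.3 and 47.9 CPM with LIF (log2 fold change -1.19, SE 0.11, edgeR adjusted p = 2.5e-10). Changes under 2-fold were seen for Stc2, at 22.0 and 23.9 CPM without LIF, against 35.0 and 30.7 CPM with LIF (log2 fold change -0.53, SE 0.12, edgeR adjusted p = 0.00032). Ppp1r15a fell by 0.36 on the log2 scale, with 70.5 and 65.05 CPM without LIF, against 88.9 and 85.3 CPM with LIF (SE 0.08, edgeR adjusted p = 0.00026). Sesn2 fell by 0.35, with 141 and 135 CPM without LIF, against 180.0 and 173 CPM with LIF (SE 0.07, edgeR adjusted p = 3.9e-05).

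Atf3 and Cebpg did not pass the test without LIF. Atf3 stood at 28.9 and 26.5 CPM without LIF, against 28.9 and 28.3 CPM with LIF (log2 fold change -0.04, SE 0.11, edgeR adjusted p = 0.76), so the groups overlapped. Cebpg stood at 116 and 111 CPM without LIF, against 120.4 and 127 CPM with LIF (log2 fold change -0.12, SE 0.07, edgeR adjusted p = 0.12). Atf4 was at 1.195 and 0.545 CPM without LIF, against 2.29 and 1.76 CPM with LIF (log2 fold change -1.12, SE 0.43, edgeR adjusted p = 0.022). Ddit3 was at 0.512 and 0.273 CPM without LIF, against 1.77 and 1.29 CPM with LIF (log2 fold change -1.86, SE 0.60, edgeR adjusted p = 0.0083). Without the first no LIF library the value for Atf4 was -1.89. These low-count calls were lost without the second no LIF library or the first LIF library, and for Ddit3 also without the first no LIF library. With DESeq2 neither passed (DESeq2 adjusted p = 0.141 for Atf4 and 0.136 for Ddit3). Atf5, at 1.28 and 1.23 CPM without LIF, against 1.77 and 2.94 CPM with LIF, did not pass (log2 fold change -0.86, SE 0.41, edgeR adjusted p = 0.065).

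Among the serine and folate enzymes, 4 of 7 were lower without LIF, 1 was higher and 2 did not pass, with a median log2 fold change of -0.91. Psph stood at 64.7 and 55.6 CPM without LIF, against 127 and 122 CPM with LIF (log2 fold change -1.03, SE 0.08, edgeR adjusted p = 6.7e-12). Mthfd2 stood at 437 and 432 CPM without LIF, against 648 and 668 CPM with LIF (log2 fold change -0.60, SE 0.05, edgeR adjusted p = 2.4e-10). Aldh1l2 stood at 2.90 and 3.0 CPM without LIF, against 15.1 and 14.1 CPM with LIF (log2 fold change -2.31, SE 0.20, edgeR adjusted p = 1.1e-10). Psat1 was lower as well, at 1.195 and 2.32 CPM without LIF, against 7.33 and 5.76 CPM with LIF (log2 fold change -2.003, SE 0.34, edgeR adjusted p = 1.2e-05). Phgdh, which was lower with dTAG, did not pass here, at 102 and 89.7 CPM without LIF, against 119.9 and 95.8 CPM with LIF (log2 fold change -0.17, SE 0.09, edgeR adjusted p = 0.11). Its groups overlapped. Mthfd1l was higher, at 16.3 and 20.05 CPM without LIF, against 13.2 and 12.7 CPM with LIF (log2 fold change 0.47, SE 0.14, edgeR adjusted p = 0.0048), and its call was lost without the second no LIF library (edgeR adjusted p = 0.0593). Shmt2 stood at 0.854 and 1.5 CPM without LIF, against 2.38 and 1.76 CPM with LIF, and did not pass (edgeR adjusted p = 0.056).

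Of the enzymes of amino acid synthesis, 5 of 7 were lower without LIF and 2 did not pass, with a median log2 fold change of -1.31. Asns stood at 890.1 and 850.0 CPM without LIF, against 2703 and 2852 CPM with LIF (log2 fold change -1.67, SE 0.05, edgeR adjusted p = 3.8e-20). Cth stood at 153 and 152 CPM without LIF, against 382 and 408 CPM with LIF (log2 fold change -1.37, SE 0.06, edgeR adjusted p = 3.5e-17). Pycr1 stood at 38.0 and 35.2 CPM without LIF, against 86.9 and 96.6 CPM with LIF (log2 fold change -1.31, SE 0.09, edgeR adjusted p = 5.2e-13). In each of these the LIF libraries were the highest of the 8. Gpt2 stood at 286 and 262 CPM without LIF, against 573 and 588 CPM with LIF (log2 fold change -1.08, SE 0.06, edgeR adjusted p = 1.8e-15). Got1 stood at 279 and 299 CPM without LIF, against 525 and 529 CPM with LIF (log2 fold change -0.87, SE 0.05, edgeR adjusted p = 1.1e-13). Aldh18a1, at 2.13 and 1.36 CPM without LIF, against 3.27 and 2.82 CPM with LIF, came close to the threshold and did not pass (edgeR adjusted p = 0.051). Cbs had 1 read without LIF, against 8 with LIF, a ratio of 7.68 in favour of LIF with an exact 95% counting interval of 1.03 to 341 (edgeR adjusted p = 0.057).

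Of the 8 transporters tested, 5 were lower without LIF, 1 was higher and 2 did not pass, with a median log2 fold change of -0.43. Slc1a5 stood at 151 and 145 CPM without LIF, against 364 and 382 CPM with LIF (log2 fold change -1.33, SE 0.06, edgeR adjusted p = 1.2e-16). Slc1a4 stood at 106 and 117 CPM without LIF, against 158 and 162 CPM with LIF (log2 fold change -0.52, SE 0.07, edgeR adjusted p = 2.3e-07). Slc7a5 stood at 1154 and 1122 CPM without LIF, against 1448 and 1458 CPM with LIF (log2 fold change -0.35, SE 0.05, edgeR adjusted p = 7.7e-07). No overlap was seen in these genes, although only that of Slc1a5 exceeded 2-fold. Slc3a2 was at 8.20 and 6.55 CPM without LIF, against 9.71 and 11.9 CPM with LIF (log2 fold change -0.51, SE 0.20, edgeR adjusted p = 0.025). Slc6a9 was at 0.939 and 0.136 CPM without LIF, against 1.59 and 1.76 CPM with LIF (log2 fold change -1.40, SE 0.54, edgeR adjusted p = 0.024). Both of these calls were lost when single libraries of the comparison were left out, and Slc6a9 ranged between -3.48 and -0.81 on the log2 scale. With DESeq2 neither passed (DESeq2 adjusted p = 0.153 for Slc3a2 and 0.178 for Slc6a9). Slc7a3 was higher, at 2.39 and 3.0 CPM without LIF, against 0.441 and 0.118 CPM with LIF (log2 fold change 3.08, SE 0.53, edgeR adjusted p = 1.4e-05). The LIF libraries held 5 and 1 reads of Slc7a3, and its log2 fold change was 4.33 without the first of them and 2.58 without the second. Slc7a11 and Slc38a2 did not pass. Slc7a11 was at 11.1 and 11.3 CPM without LIF, against 11.2 and 10.8 CPM with LIF (log2 fold change 0.02, SE 0.16, edgeR adjusted p = 0.92). Slc38a2 was at 26.7 and 28.6 CPM without LIF, against 25.6 and 22.0 CPM with LIF (log2 fold change 0.20, SE 0.12, edgeR adjusted p = 0.12).

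The 2 treatments were then set side by side. They use separate control libraries, and 17 of the 34 tested members were lower in both, against 11.5% of all tested genes, while 9.31% of all tested genes were higher in both. Atf4 and Ddit3, which are among the 17, did not pass with DESeq2 in either comparison. Mthfd1l and Slc7a3 were lower with dTAG and higher without LIF, a pattern of 4.72% of all tested genes, while Ppp1r15a and Slc1a5 were higher with dTAG and lower without LIF, a pattern of 5.89%. The difference itself, the log2 fold change with dTAG minus that without LIF, passed the test for 24 members and for 55% of all tested genes. It was negative for 15 of the 34, against 26.4% of all tested genes, and positive for 9, against 28.5%. The positive differences and the opposite calls thus came near the shares of all tested genes, while the negative differences exceeded theirs. OCT4 degradation gave the lower value for Stc2 (difference -3.66, edgeR adjusted p = 4.7e-10, and -4.34 without the first dTAG library), Atf3 (-2.86, edgeR adjusted p = 1.7e-10), Slc7a11 (-2.41, edgeR adjusted p = 1.3e-06) and Phgdh (-1.48, edgeR adjusted p = 1.1e-08). Of the 7 serine and folate enzymes, 4 had a negative difference, and the other 3 did not pass. Of the 8 transporters tested, 5 had a negative difference. LIF withdrawal gave the lower value for Nupr1 (difference 3.33, edgeR adjusted p = 9.8e-16), Slc1a5 (1.52, edgeR adjusted p = 2.4e-14), Ddit4 (1.27, edgeR adjusted p = 1.6e-12), Trib3 (1.14, edgeR adjusted p = 6.1e-09) and Asns (0.84, edgeR adjusted p = 1.6e-10). Psph, Pycr1 and Psat1 were lower in both comparisons, and for them the difference did not pass the test. The treatments also differ in length and in cell line, and the 2 control groups differed in level for most members. Trib3 ended at 34.9 and 35.3 CPM with dTAG and at 32.7 and 33.5 CPM without LIF. Its controls were at 71.2 and 66.1 CPM with DMSO and 144 and 139.6 CPM with LIF. Ddit4 ended at 132 and 126 CPM with dTAG and at 118 and 117 CPM without LIF. Its controls were at 134 and 138 CPM with DMSO and 302 and 294 CPM with LIF. Nupr1, Slc1a5 and Asns ended lower without LIF than with dTAG.

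**Figure D4:**
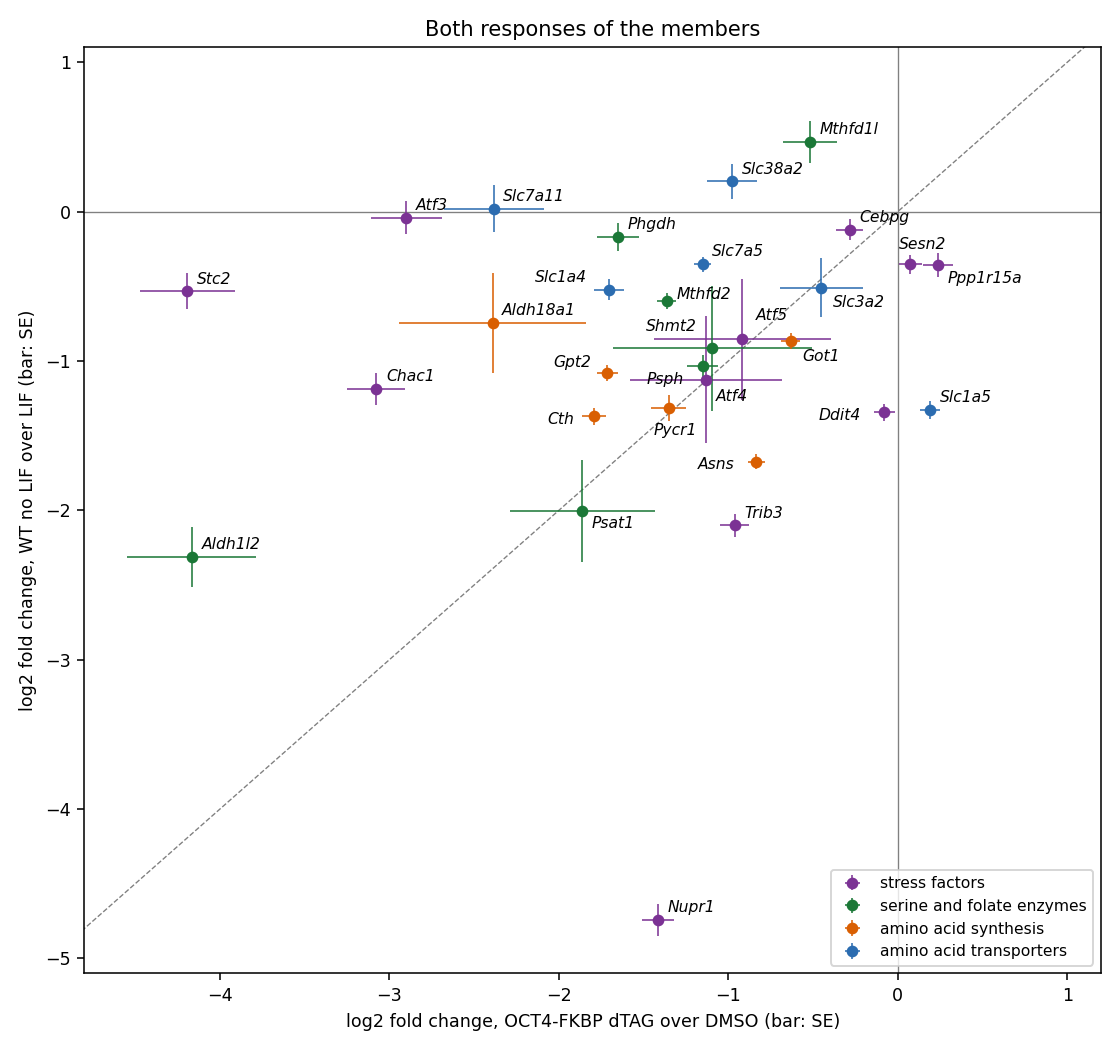
Log2 fold change of the members with dTAG against DMSO (horizontal axis) and without LIF against LIF (vertical axis), coloured by role, with bars of 1 SE and a dashed line where both are equal. The 4 members with 3 or fewer reads in a group, Ddit3, Slc7a3, Cbs and Slc6a9, are left out. Stc2, Atf3 and Slc7a11 lie far left near the top, and Nupr1 lies at the bottom.

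Of all tested genes, 20.4% were lower and 20.1% higher with dTAG, and 34.4% were lower and 34.1% higher without LIF. Members with a C/EBP-ATF match in the promoter window were lower with dTAG in 9 of 9 cases, with a median log2 fold change of -1.42. Without LIF 7 of 9 were lower, with a median of -1.19. Of the 20 tested members that had a window and no match, 12 were lower and 2 higher with dTAG, with a median of -1.11. Without LIF 12 of these 20 were lower and 1 was higher, with a median of -0.80. The 2 members with a match that did not pass without LIF were Atf3 and Slc7a11. No test compares these small sets, whose members were listed as targets of ATF4. The sets also differ in reads, and few reads make a call less likely. Atf5, Shmt2 and Slc6a9, without a match, held 107, 92 and 53 reads in all and did not pass with dTAG. Others without a match, such as Mthfd2, were well counted. Among members with a match the fewest reads were the 559 of Slc7a11.

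In the tagged line with DMSO most of the listed members were already lower than in WT cells with LIF. There 26 of the 34 tested members were lower, against 22.1% of all tested genes, and the other 8 did not pass the test, with a median log2 fold change of -0.87, against -0.03 over all tested genes. In either direction 40.7% of all tested genes passed. This comparison uses the same DMSO libraries as the dTAG comparison and the same LIF libraries as the LIF comparison, so its values are not independent of theirs. By role, 10 of 12 stress factors, 4 of 7 serine and folate enzymes, 5 of 7 synthesis enzymes and 7 of 8 transporters were lower. Without the second DMSO library the calls on the transporters Slc3a2 (log2 fold change -0.41), Slc6a9 (-1.52) and Slc38a2 (-0.36) were lost. Those on Sesn2 (-0.14) and Psat1 (-0.77) were lost as well. With DESeq2 20 members were lower, and Slc3a2 and Slc38a2 were among those that did not pass. Cth was at 141 and 138 CPM with DMSO, against 382 and 408 CPM in WT with LIF (log2 fold change -1.50, SE 0.06, edgeR adjusted p = 2.8e-16). Nupr1 was at 59.9 and 66.2 CPM with DMSO, against 164 and 163 CPM in WT with LIF (log2 fold change -1.37, SE 0.08, edgeR adjusted p = 1.9e-13). Gpt2 was at 250.5 and 253 CPM with DMSO, against 573 and 588 CPM in WT with LIF (log2 fold change -1.20, SE 0.06, edgeR adjusted p = 5.9e-15). These groups lay far apart. Ddit4, which did not pass in the dTAG comparison, was at 134 and 138 CPM with DMSO, against 302 and 294 CPM in WT with LIF (log2 fold change -1.13, SE 0.06, edgeR adjusted p = 5.4e-14). Mthfd2, at 606 and 622 CPM with DMSO, against 648 and 668 CPM in WT with LIF, did not pass (log2 fold change -0.10, SE 0.05, edgeR adjusted p = 0.14). Markers of cell identity differed as well. Pou5f1, which encodes the protein tagged in this line, was at 77.5 and 77.8 CPM with DMSO, against 425 and 336 CPM in WT with LIF. Whether the tag alters how its reads were counted was not tested. Dppa5a was at 771 and 777 CPM, against 1330.3 and 1266 CPM, and Tdgf1 was also lower with DMSO. Tfcp2l1 was higher, at 3599 and 3549 CPM with DMSO, against 3205 and 3152 CPM in WT with LIF. Klf4, Zfp42 and Utf1 were higher with DMSO too, and the groups overlapped for Sox2. Summed ES cell markers were 6996 to 7067 CPM with DMSO, against 7291 to 7305 CPM in WT with LIF. Cdx2 was at 30.7 and 35.0 CPM with DMSO, against 0.530 and 1.06 CPM in WT with LIF, and the trophoblast sum was 60.8 to 62.8 CPM, against 24.7 to 24.98 CPM. Their part in the result was not tested. The tag, the clone, the DMSO and the culture cannot be told apart here.

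The counts in other lists are to be read against all tested genes, of which 20.4% were lower and 20.1% higher with dTAG, and 34.4% lower and 34.1% higher without LIF. Genes upstream of ATF4 lay near or below these shares. Of 17 tested genes for eIF2 kinases, eIF2, eIF2B and the phosphatase, 2 were higher and 4 lower with dTAG, and 4 higher and 6 lower without LIF. Eif2b5, the catalytic subunit of the exchange factor eIF2B, was lower with dTAG (log2 fold change -0.78, SE 0.05, edgeR adjusted p = 1.1e-12) and without LIF (-1.25, SE 0.05, edgeR adjusted p = 1.6e-17). Eif2s2, the beta subunit of eIF2, was lower with dTAG (-0.23, SE 0.05, edgeR adjusted p = 0.0011) and without LIF (-1.46, SE 0.06, edgeR adjusted p = 3.2e-18). Of 16 cytosolic tRNA synthetase genes tested, 8 were lower and 1 higher with dTAG, with a median of -0.51, and 12 lower and 1 higher without LIF, with a median of -0.47. With dTAG the smallest adjusted p-values were those of the tyrosine enzyme Yars (log2 fold change -0.91, SE 0.07, edgeR adjusted p = 3.1e-11) and the isoleucine enzyme Iars (-0.64, SE 0.05, edgeR adjusted p = 8.8e-11). Without LIF they were those of the alanine enzyme Aars (-1.15, SE 0.06, edgeR adjusted p = 8.5e-16) and the threonine enzyme Tars (-0.92, SE 0.05, edgeR adjusted p = 2.6e-14). The 13 mitochondrial synthetase genes tested stayed closer to 0, with medians of -0.01 in both comparisons, 2 lower and 1 higher with dTAG, and 3 each way without LIF. Ears2 (-0.52) and Vars2 (-0.29) led among these with dTAG, and Vars2 (-0.89) was lower without LIF.

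Chaperones of the endoplasmic reticulum and targets of ATF6 or XBP1, the other arms of the unfolded protein response, had 5 of 22 lower and 4 higher with dTAG, near the 20.4% and 20.1% of all tested genes. Hsp90b1 (log2 fold change -0.27) and Pdia4 (-0.25) led there. Without LIF 10 were lower and 3 higher, led by Sdf2l1 (-1.19) and Pdia4 (-0.62). Of 27 other reported targets of ATF4 or CHOP, 8 were lower and 6 higher with dTAG, and 11 lower and 9 higher without LIF, shares not far from those of all tested genes. Pck2, the mitochondrial phosphoenolpyruvate carboxykinase, stood at 31.4 and 28.4 CPM with dTAG, against 121 and 125 CPM with DMSO (log2 fold change -2.04, SE 0.09, edgeR adjusted p = 2.0e-16). Without LIF it stood at 89.0 and 90.5 CPM, against 337 and 290.1 CPM with LIF (log2 fold change -1.81, SE 0.07, edgeR adjusted p = 6.5e-18). Eif4ebp1, a repressor of cap-dependent translation, was lower with dTAG (log2 fold change -0.86, SE 0.06, edgeR adjusted p = 1.6e-12). Pmaip1, a death-promoting BH3-only gene that p53 also drives, was higher without LIF (log2 fold change 2.56, SE 0.07, edgeR adjusted p = 1.5e-21).

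Other genes of amino acid metabolism went both ways, as did all tested genes (20.4% lower and 20.1% higher with dTAG, 34.4% and 34.1% without LIF). Of 10 other serine, glycine and folate enzymes tested, 4 were lower and 2 higher with dTAG, led by Shmt1 (log2 fold change -0.70) and Gldc (-0.67), and 3 lower and 6 higher without LIF, led by Gldc (1.28) and Amt (-1.36). Gldc and Amt are both subunits of the glycine cleavage system. Of 19 other amino acid enzymes tested, 8 were lower and 4 higher with dTAG, and 8 lower and 11 higher without LIF. The glutamine synthetase gene Glul stood at 628 and 589.6 CPM with dTAG, against 221 and 226 CPM with DMSO (log2 fold change 1.44, SE 0.05, edgeR adjusted p = 1.9e-17). Threonine dehydrogenase, Tdh, stood at 54.1 and 49.9 CPM without LIF, against 655 and 645 CPM with LIF (log2 fold change -3.64, SE 0.06, edgeR adjusted p = 2.9e-25), and was also lower with dTAG (-0.95, SE 0.05, edgeR adjusted p = 4.0e-14). Ass1, which joins citrulline and aspartate, was lower without LIF (-2.49, SE 0.07, edgeR adjusted p = 9.4e-21). Of 15 other transporters tested, 3 were lower and 4 higher with dTAG, led by Slc38a4 (2.57) and Slc38a7 (-0.42), and 6 went each way without LIF, led by the glutamate carrier gene Slc1a3 (4.12) and Slc38a7 (-1.27).

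Targets of NRF2, the factor that answers oxidative stress and also drives Slc7a11, were read beside the members. Of 15 tested with dTAG, 8 were higher, against 20.1% of all tested genes, and the other 7 did not pass. Those higher were led by Gpx2 (log2 fold change 1.93, SE 0.07, edgeR adjusted p = 2.1e-17) and the sulfiredoxin gene Srxn1 (1.41, SE 0.07, edgeR adjusted p = 3.4e-15). Gpx2, a glutathione peroxidase, stood at 229 and 225 CPM with dTAG, against 58.1 and 60.6 CPM with DMSO. Without LIF 8 of the 15 were lower, against 34.4% of all tested genes, and 2 higher, against 34.1%. Gpx2 was then at 2.48 and 3.14 CPM, against 55.7 and 61.4 CPM with LIF (log2 fold change -4.41, SE 0.14, edgeR adjusted p = 5.2e-20), and the quinone reductase gene Nqo1 was also lower (-1.90, SE 0.07, edgeR adjusted p = 1.4e-18).

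**Figure D5:**
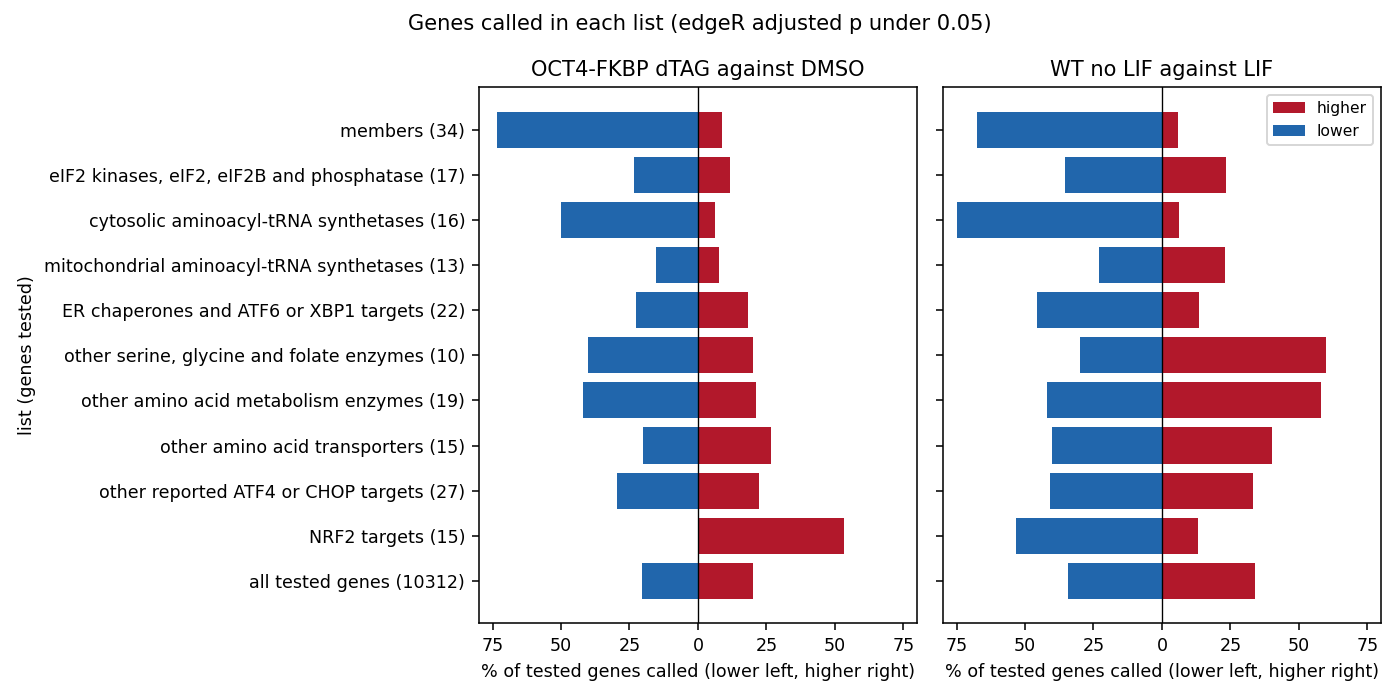
Share of the tested genes of each list that were lower (blue, to the left) or higher (red, to the right), in percent, with dTAG against DMSO and without LIF against LIF; the number of genes tested stands after each name. The members and the cytosolic synthetases have the longest blue bars in both panels, and the NRF2 targets have a red bar with dTAG and mostly a blue one without LIF.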

How the data were processed

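Poly(A) RNA of 8 libraries was prepared with a strand-marking kit and read from 1 end at 40 bases, per the labels. The authors deposited raw counts of reads per RefSeq accession, 1 table per library. The aligner HISAT2, the counter HTSeq and the genome build mm9 are those listed, per the submitters' processing notes, with no version of a tool. Whether counting used strand is not stated in the sources used here. A read in sequence shared by several accessions was assigned to none, and such ambiguous reads made up 42.5% of counted plus ambiguous reads. Summary lines of the counter, among them reads with no feature (10.4% to 14.9% of uniquely aligned reads), stayed out of library sizes and tests.

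Of 41565 accessions, 40231 were named through a RefSeq table, 121 through GENCODE, and 1213 kept their accession as a name. Counts were summed per symbol. edgeR 4.0.16 (R 4.3.3) fitted the 4 groups together with TMM scaling, filterByExpr and its quasi-likelihood F-test, with 4 residual degrees of freedom and a biological coefficient of variation of 4.43%. The Benjamini-Hochberg adjustment ran over 10312 genes, and calls are adjusted p-values under 0.05. The SE of a log2 fold change is its size divided by the square root of F. With a group at 0 reads, a fold is a bound against a floor of 3 reads over the group, and at 1 to 3 reads it is a ratio with an exact 95% interval. The bound takes the reads of the other group as exact and leaves out their counting error, and the interval covers counting error only. DESeq2 1.42.0, other scalings and filters, a replicate block and fits that leave out a library were run as alternatives. The code was tested on simulated data. In no group did the replicates agree within sampling noise.

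The members and all gene lists were chosen with earlier results of these data known. Full values are given for Atf4, Atf5, Atf3, Ddit3 and for members with a mean of at least 5 CPM that passed a main comparison, or that passed the test of the difference. In each other list the 2 genes of smallest adjusted p are named per comparison. Of these, 1 gene taken by that rule is not reported here. Values of the remaining members, and the counts of members with the highest LIF or lowest dTAG libraries, were added after the values had been seen. The other lists share some genes. Promoter sequences are those of RefSeq on GRCm38.p6; the counts were made on mm9, and no coordinates were shared between the builds.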

Additional observations from a re-analysis of the deposited data

Results flagged for a closer look

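For 24 members the log2 fold change with dTAG against DMSO differed from that without LIF against LIF by the test of the difference itself (edgeR adjusted p under 0.05, over 10312 genes). The values here are the change with dTAG minus the change without LIF. Among stress factors the difference was -3.66 for Stc2, -2.86 for Atf3 and -1.89 for Chac1, and 3.33 for Nupr1, 1.27 for Ddit4, 1.14 for Trib3, 0.59 for Ppp1r15a and 0.43 for Sesn2. Among serine and folate enzymes it was -1.86 for Aldh1l2, -1.48 for Phgdh, -0.98 for Mthfd1l and -0.77 for Mthfd2. Among enzymes of amino acid synthesis it was -1.65 for Aldh18a1, -0.63 for Gpt2 and -0.42 for Cth, and 5.09 for Cbs, 0.84 for Asns and 0.24 for Got1. Among transporters it was -2.41 for Slc7a11, -1.18 for Slc1a4, -1.18 for Slc38a2 and -0.80 for Slc7a5, and 1.52 for Slc1a5. The fitted value of -8.15 for Slc7a3 and that of 5.09 for Cbs rest on groups with 0 or 1 read and are no measure of size. The calls on Aldh18a1 (adjusted p = 0.0416), Got1 (0.011) and Cbs (0.00169) were lost in at least 1 fit that left out a library or with DESeq2, with edgeR adjusted p up to 0.210 for Aldh18a1, 0.0842 for Got1 and 0.243 for Cbs. Cell line, the level in its control and treatment length cannot be told apart from the treatment in these differences. The part of cell identity was not tested.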

How the results depend on the processing

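Settings with another scaling, DESeq2, other filters, a replicate block, single accessions, only the libraries of a comparison, and 1 library left out gave the same direction and side of the threshold in 1828 gene values, with 69 no longer past it, 13 newly past it, 5 turned in sign and 2 without an adjusted p in DESeq2. The number of members lower with dTAG was 17 (genes with 1 accession, 21 of them members) to 25, and without LIF it was 17 to 26. In the fit of genes with 1 accession, 1925 of all 8043 genes were lower with dTAG and 3040 without LIF. Members higher with dTAG came to 1 to 3 when a library was left out, with the 1 found without the first dTAG library. Members higher without LIF came to 1 with a minimum of 5 CPM, to 0 of the 21 members in a fit of genes with 1 accession (0 as well at an unadjusted p under 0.05, and 0 with DESeq2 on those genes by either p), and to 1 to 3 when a library was left out, with the 1 found without the second no LIF library. The signs that turned were those of changes that did not pass. Atf3 without LIF was 0.0045 with RLE scaling, 0.00067 with DESeq2 and -0.11 to 0.030 when a library was left out. Sesn2 with dTAG was -0.025 to 0.16, and Phgdh without LIF -0.29 to 0.0038, when a library was left out. Replicate numbers gave no pairing, as deviations of same-numbered libraries correlated at -0.00168 to 0.0497. The replicate block kept 27 of 28 calls with dTAG, losing Ddit3 (edgeR adjusted p = 0.0568), with 24 members lower and 3 higher, and kept all 25 calls without LIF. Without the second DMSO library Ddit3 had 0 reads in both groups, so no value could be given. The cause of these shifts was not tested. Depth limits the members with several accessions, whose reads cover only the sequence that tells accessions apart.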
